A study of Mus musculus with 12 samples.

Results

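The 10 genes described here encode the interleukin-1 (IL-1) family cytokines and the inflammasome machinery that neutrophils use to make them. They are Il1b, Il1a, Il18, Il1rn, Il1r2, Nlrp3, Pycard, Casp1, Casp4 and Gsdmd, 10 of the 29737 genes in the deposited count table. The set was chosen on measured values of these samples, because Il1b and Il18 were lower with tauro-β-muricholic acid (TβMCA) than with PBS, so the values of the 10 genes in that contrast are a description with no test. All 10 genes passed the filter on low counts. Neutrophils came from the bone marrow of wild-type mice, were enriched for Ly6G+ cells with magnetic beads and were cultured for 24 h before mRNA was sequenced. The 4 groups were PBS (the control), 200 µM taurocholic acid (TCA), 200 µM glycocholic acid (GCA) and TβMCA, each with 3 samples. The sample labels give a TβMCA concentration of 10 µM, whereas the written methods give 200 µM. Because that dose is uncertain, TβMCA values are set beside those of TCA and GCA without a comparison between the acids. No label states whether the samples of a group came from separate mice, so the p-values measure only the spread between these samples.

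IL-1β, IL-1α and IL-18 are inflammatory cytokines. IL-1β and IL-18 are made as inactive precursors, and an inflammasome is the protein platform that activates the caspase that cuts them. A sensor such as NLRP3 recruits the adaptor ASC (encoded by Pycard), ASC recruits caspase-1, and caspase-1 cuts the precursors and gasdermin D, which then forms pores in the membrane. Il1rn encodes the IL-1 receptor antagonist and Il1r2 the decoy receptor, both of which dampen IL-1 signaling. Neutrophils are an abundant source of IL-1β and carry the decoy receptor on their surface. The messenger RNA levels given here say nothing about cutting or release of the proteins.

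Promoter sequences of 4 members are shown because these are 4 of the 5 members whose TβMCA and PBS samples did not overlap: the cytokines Il1b and Il18 and the sensor Nlrp3 on the low side, and the adaptor Pycard on the high side. They are RefSeq sequences of the GRCm38.p6 build, each running 5′ to 3′ on the strand of its gene from 250 bases before the transcription start to 50 bases after it. Capitals mark matches to the motifs that were searched on both strands. The windows are chr2:129371090-129371389 on the minus strand for Il1b, chr9:50554450-50554749 on the plus strand for Il18, chr11:59541319-59541618 on the plus strand for Nlrp3 and chr7:127993818-127994117 on the minus strand for Pycard.
Il1b: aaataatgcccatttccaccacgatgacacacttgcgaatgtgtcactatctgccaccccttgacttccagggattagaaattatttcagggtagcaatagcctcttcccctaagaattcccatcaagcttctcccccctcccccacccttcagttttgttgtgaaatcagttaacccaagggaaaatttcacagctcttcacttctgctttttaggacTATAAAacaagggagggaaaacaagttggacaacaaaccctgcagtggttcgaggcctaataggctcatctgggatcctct
Il18: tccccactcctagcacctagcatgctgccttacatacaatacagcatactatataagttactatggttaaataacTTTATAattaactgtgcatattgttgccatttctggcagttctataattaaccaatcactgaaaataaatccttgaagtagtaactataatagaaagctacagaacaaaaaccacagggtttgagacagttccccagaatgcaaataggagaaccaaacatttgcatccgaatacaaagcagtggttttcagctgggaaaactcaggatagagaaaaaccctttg
Nlrp3: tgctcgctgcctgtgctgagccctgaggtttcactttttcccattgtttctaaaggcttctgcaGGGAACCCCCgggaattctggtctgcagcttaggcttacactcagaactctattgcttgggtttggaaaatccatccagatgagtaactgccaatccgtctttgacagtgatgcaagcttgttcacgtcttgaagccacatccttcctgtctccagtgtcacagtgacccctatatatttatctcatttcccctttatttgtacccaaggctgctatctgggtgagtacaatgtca
Pycard: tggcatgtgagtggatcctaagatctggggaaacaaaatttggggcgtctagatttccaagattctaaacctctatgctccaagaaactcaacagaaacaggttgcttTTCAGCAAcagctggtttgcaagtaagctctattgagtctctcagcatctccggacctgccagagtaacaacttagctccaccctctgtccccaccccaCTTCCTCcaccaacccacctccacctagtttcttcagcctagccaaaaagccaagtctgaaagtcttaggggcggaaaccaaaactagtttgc
The Il1b window held 1 match, a TATA box (TATAAA) that begins 31 bases before the start. Of the 32851 mouse promoters of the same length, 13.6% hold TATAAA at any position on either strand. The shares of the other motifs were counted in the same way. The Il18 window also held 1 match to TATAAA, on the opposite strand and 175 bases before the start. The Nlrp3 window held 1 match to the NF-κB consensus, 186 bases before the start, which 8.46% of all promoters hold. The Pycard window held a match to the C/EBP motif (TTGCNNAA, in 10.8% of promoters) and a match to the PU.1 motif (GAGGAAG, in 13.6%), both on the opposite strand, 142 and 43 bases before the start. No match to the AP-1 motif (TGANTCA, in 7.81% of promoters) or the IRF motif (GAAANNGAA, in 8.56%) lay in these 4 windows. The window of Il1r2, the other member without overlap, held 0 matches and was left out. Among the other members, AP-1 matches lay in windows of Il1a and Il1rn and NF-κB matches in those of Casp4. RefSeq lists a further Nlrp3 start, with the window chr11:59542436-59542735, which is not printed and held 2 matches to the PU.1 motif. A match is a description of the letters and not a shown binding site. Of the 10 members, 9 had a RefSeq promoter entry, and Gsdmd is the other one.

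Levels between genes can be compared only per length, and the deposited RPKM values divide by the merged exon length of each gene. That length ran from 1031 bases for Il18 to 3800 for Pycard and 5535 for Il1rn. It may exceed the length of the transcripts present, and the RPKM would then understate the level. The order of genes and the ratios between genes therefore hold for these lengths only. In the 3 PBS samples, Il1r2 (RPKM 86.7, 104 and 98.5) and Gsdmd (69.3, 80.3 and 85.9) had the highest RPKM of the 10 genes. Their ranges did not meet. A middle tier followed, in which Il1b lay at 15.9 to 26.9 RPKM, Pycard at 19.6 to 23.0, Casp1 at 18.2 to 18.8, Il1rn at 14.9 to 20.0 and Nlrp3 at 14.1 to 16.6. Within this tier Il1b overlapped with each of the other 4, whereas Pycard lay above Casp1 and Casp1 above Nlrp3 in every PBS sample. Casp4, which encodes the caspase that senses lipopolysaccharide inside cells, lay at 4.88 to 5.37 RPKM. Il18 (0.733 to 1.41) and Il1a (0.561 to 0.940) had the lowest RPKM and overlapped each other. The receptor that mutes IL-1 thus had a higher RPKM than the cytokine it binds, over merged lengths of 1908 and 1907 bases. The Il1r2 RPKM was 3.66 to 5.44 times that of Il1b in the PBS samples.

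**Figure D1:**
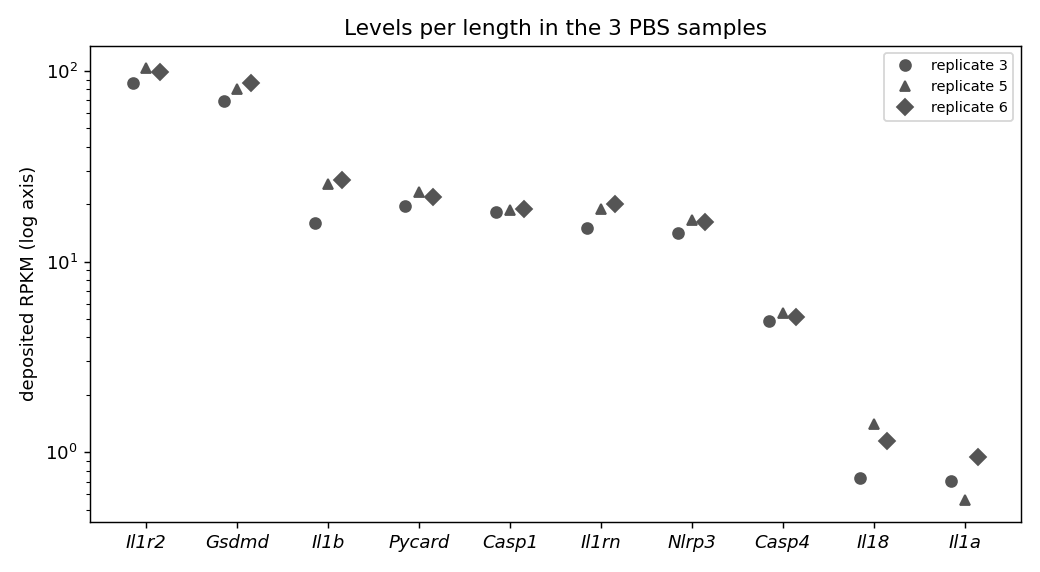
Deposited RPKM (log axis) of the 10 genes in the 3 PBS samples, 1 point per sample with the replicate number as its shape, ordered by the mean. Il1r2 and Gsdmd lie above the other genes, Casp4 lies alone at about 5 RPKM, and Il18 and Il1a lie at the bottom.

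All 10 genes are given below as CPM, which scales counts to a common library total, after TMM normalization, which adjusts for composition differences between libraries. Total counts per sample lay between 32757389 and 41375925, and 3 counts, the level treated as detectable, correspond to 0.0725 to 0.0931 CPM. The neutrophil markers were high in every group, with a summed level over 10 markers of 33500 to 40500 CPM with PBS and 26200 to 30700 CPM with TβMCA. Markers of monocytes and macrophages were present too, at 1470 to 1590 CPM over 12 markers with PBS, 1290 to 1620 with TCA and 1160 to 1530 with GCA. In the TβMCA samples with replicate numbers 3, 4 and 5 the same sum was 504, 659 and 1256 CPM. Replicate 5 of TβMCA therefore stood between the other TβMCA samples and the controls, and results that rest on that group are also given without it. In these bulk samples, fewer cells of a type and less RNA per cell cannot be told apart.

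Il1b and Il18 were the members with the largest differences between TβMCA and PBS. Il1b (chr2:129364570-129371139, minus strand) had 31.1, 48.9 and 51.5 CPM in PBS replicates 3, 5 and 6. With TβMCA it had 9.36, 13.7 and 27.5 CPM in replicates 3, 4 and 5. All 3 TβMCA samples lay below all 3 PBS samples, and replicate 5 was the nearest to them. The fitted log2 fold change was −1.37 (SE 0.480), or 2.59-fold lower, and −1.92 (SE 0.479) without TβMCA replicate 5. With TCA, Il1b had 21.2, 51.9 and 53.0 CPM, so its range reached below and above that of PBS. With GCA it had 26.2, 24.4 and 39.1 CPM, all within or below the PBS range. The same library that was lowest for the monocyte and macrophage markers (TβMCA replicate 3) was the lowest for Il1b. The monocyte markers Ccr2 (a chemokine receptor) and F13a1 (a coagulation factor subunit) stood at 37.3 to 51.2 and 519 to 584 CPM with PBS. In TβMCA replicates 3, 4 and 5, Ccr2 had 2.03, 2.70 and 29.2 CPM and F13a1 had 54.8, 75.9 and 367 CPM. All 12 markers of the list were lower with TβMCA, and none was at 0. By edgeR's adjusted test 1 of them fell, where 3.18% of all genes fell. Of the 12, 7 did not overlap with PBS, where 12.8% of all genes tested were lower without overlap. Their part in the Il1b values was not tested.

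Il18, the other gene on which the set was chosen, was a scarce transcript. Il18 (chr9:50554827-50581840, plus strand) had 0.775, 1.47 and 1.19 CPM with PBS, from 27, 50 and 44 counts. With TβMCA it had 0.299, 0.567 and 0.535 CPM, from 10, 21 and 20 counts. The TβMCA samples lay below the PBS samples without overlap, with a log2 fold change of −1.28 (SE 0.372), and of −1.38 (SE 0.434) without TβMCA replicate 5. Here replicate 5 did not stand apart from the other TβMCA samples. With TCA, Il18 had 0.620, 0.798 and 0.839 CPM, and with GCA 0.676, 1.09 and 1.61 CPM. Both of these groups overlapped with PBS. Il1a, the precursor of which is active without cutting, was as scarce, at 1.43, 1.12 and 1.86 CPM with PBS and 0.867, 1.22 and 1.15 CPM with TβMCA. The 2 groups overlapped for Il1a, and the log2 fold change was −0.45 (SE 0.252), or −0.50 (SE 0.295) without TβMCA replicate 5. Il1a had 1.15, 1.38 and 1.57 CPM with TCA and 1.10, 1.29 and 0.960 CPM with GCA.

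**Figure D2:**
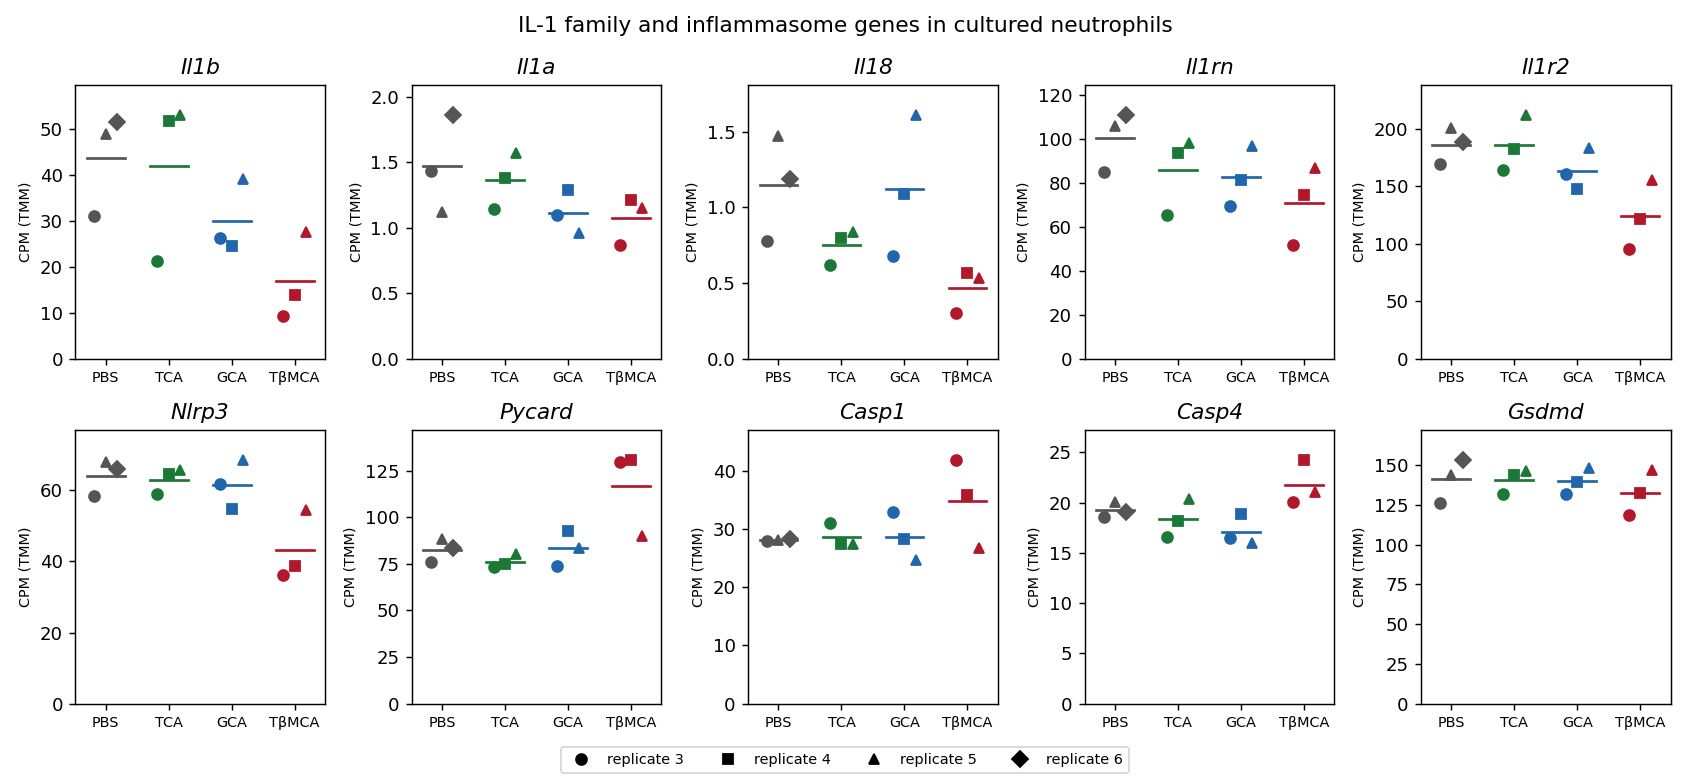
CPM after TMM normalization of each of the 10 genes in the 12 samples, with 1 point per sample, the replicate number as its shape and the group mean as a line. The y axes start at 0 and differ between genes. The TβMCA points of Il1b, Il18, Il1r2 and Nlrp3 lie below all PBS points and those of Pycard lie above them.

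Both genes that dampen IL-1 had lower estimates with TβMCA than with PBS. The groups did not overlap for the decoy receptor and did for the antagonist, and a difference between the 2 genes was not tested. Il1r2 (chr1:40074079-40125231, plus strand) had 169, 200 and 188 CPM with PBS and 95.3, 122 and 156 CPM with TβMCA. All TβMCA samples were below the PBS samples, with a log2 fold change of −0.58 (SE 0.160), and of −0.78 (SE 0.132) without TβMCA replicate 5. Il1r2 had 164, 182 and 212 CPM with TCA and 161, 147 and 183 CPM with GCA, which overlapped with PBS. Il1rn (chr2:24336853-24351494, plus strand) had 84.7, 106 and 111 CPM with PBS and 51.6, 74.7 and 86.8 CPM with TβMCA. TβMCA replicate 5 exceeded PBS replicate 3, so the groups overlapped, and the log2 fold change was −0.50 (SE 0.219), or −0.67 (SE 0.232) without TβMCA replicate 5. Il1rn had 65.4, 93.6 and 98.3 CPM with TCA and 69.3, 81.2 and 96.9 CPM with GCA. The ratio of the Il1b RPKM to the Il1rn RPKM was 0.527, 0.534 and 0.920 in the TβMCA samples. With PBS that ratio was 1.07, 1.34 and 1.35, with TCA 0.941, 1.61 and 1.57, and with GCA 1.10, 0.874 and 1.17. The ratio of the Il1r2 RPKM to the Il1b RPKM was 10.2, 8.86 and 5.66 with TβMCA, 7.74, 3.51 and 3.99 with TCA and 6.13, 6.03 and 4.69 with GCA. With PBS this second ratio was 5.44, 4.10 and 3.66. Both ratios are given as a description with no comparison between the acids.

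The sensor and the adaptor of the NLRP3 inflammasome went in opposite directions with TβMCA. Nlrp3 (chr11:59541568-59566956, plus strand), the sensor, had 58.4, 67.9 and 65.9 CPM with PBS. With TβMCA it had 36.3, 38.7 and 54.3 CPM, all below the PBS samples. Its log2 fold change was −0.57 (SE 0.132), and −0.77 (SE 0.098) without TβMCA replicate 5. Nlrp3 had 58.9, 64.6 and 65.6 CPM with TCA and 61.8, 54.6 and 68.4 CPM with GCA, close to PBS. Pycard (chr7:127989708-127993867, minus strand), the adaptor, had 76.2, 88.4 and 83.3 CPM with PBS and 130, 130 and 90.2 CPM with TβMCA. All 3 TβMCA samples lay above the PBS samples, although replicate 5 did so by a small margin, and the log2 fold change was 0.50 (SE 0.125), or 0.66 (SE 0.088) without replicate 5. Pycard had 73.5, 74.8 and 80.3 CPM with TCA and 74.0, 92.7 and 83.4 CPM with GCA. The ratio of the Pycard RPKM to the Nlrp3 RPKM was 3.82 and 3.60 in TβMCA replicates 3 and 4 and 1.77 in replicate 5. It lay between 1.24 and 1.39 in all PBS and TCA samples and in GCA replicates 3 and 5, and was 1.81 in GCA replicate 4.

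The Pycard values carry a limit of their own. Exons of Gm45205 (chr7:127993269-127996598, plus strand) overlap those of Pycard on the opposite strand over 485 bases, of 3800 exonic bases of Pycard and 3330 of Gm45205. The Gm45205 count was 0.679 to 0.737 times the Pycard count in all 12 samples. Gm45205 was also higher with TβMCA (log2 fold change 0.44, SE 0.125). Because the strand setting of the counting was not stated, reads in the shared stretch cannot be assigned to one gene. The Pycard promoter shown above lies inside the Gm45205 gene. Il1b shares 25 exonic bases with Il1bos on the opposite strand, whose count was 0.0433 to 0.0990 times that of Il1b. Il1a shares 222 bases with Gm14023, whose count was 0.487 to 0.877 times that of Il1a, so the Il1a level is uncertain too.

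The caspases and the pore protein differed less. Casp1 (chr9:5298517-5307265, plus strand) had 27.9, 28.0 and 28.2 CPM with PBS and 41.7, 35.9 and 26.7 CPM with TβMCA. TβMCA replicates 3 and 4 were above every PBS sample and replicate 5 was below them, with a log2 fold change of 0.31 (SE 0.136), and of 0.47 (SE 0.109) without replicate 5. Casp1 had 31.0, 27.5 and 27.5 CPM with TCA and 32.8, 28.2 and 24.6 CPM with GCA. Casp4 (chr9:5308828-5336783, plus strand) had 18.6, 20.1 and 19.0 CPM with PBS and 20.1, 24.2 and 21.1 CPM with TβMCA. The lowest TβMCA sample and the highest PBS sample nearly coincided, and the log2 fold change was 0.18 (SE 0.101), or 0.20 (SE 0.113) without TβMCA replicate 5. Casp4 had 16.6, 18.2 and 20.4 CPM with TCA and 16.4, 18.8 and 16.0 CPM with GCA. Gsdmd (chr15:75862339-75867404, plus strand) had 126, 144 and 153 CPM with PBS, 119, 132 and 147 CPM with TβMCA, 132, 144 and 146 CPM with TCA and 132, 139 and 148 CPM with GCA. Gsdmd was the most even of the 10 genes, with a TβMCA log2 fold change of −0.09 (SE 0.086), and of −0.17 (SE 0.087) without TβMCA replicate 5.

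Over the 10 genes, 4 lay below PBS without overlap with TβMCA (Il1b, Il18, Il1r2 and Nlrp3) and 1 lay above (Pycard). Among all 16761 genes tested, 12.8% lay below and 14.1% above in the same way. The median log2 fold change of the 10 genes was −0.47, and that of all genes was 0.00411. Nothing is read from these counts, since the genes were chosen on this contrast. Without TβMCA replicate 5, the 7 genes with a lower estimate and the 3 with a higher one (Pycard, Casp1 and Casp4) had the same sign and estimates farther from 0. Leaving out TβMCA replicate 3 instead brought every estimate nearer to 0, except that of Casp4 (0.236). Il1b was then at −1.087, Il18 at −1.048, Il1r2 at −0.422, Nlrp3 at −0.462, Il1rn at −0.315, Pycard at 0.417 and Casp1 at 0.156. Other cell markers moved in these samples as well. Of the 10 neutrophil markers 9 were lower with TβMCA, and these 9 lay below PBS without overlap, against 12.8% of all genes. By edgeR's adjusted test 4 of them fell, where 3.18% of all genes fell. Ly6g had 17.8 to 21.4 CPM with PBS and 7.54, 8.32 and 12.9 CPM with TβMCA. The summed eosinophil markers (5 of 5 lower, 1 passing the test) were at 138 to 241 CPM with PBS and 54.1 to 124 with TβMCA. Sums for basophils and mast cells (24.6 to 48.6 against 21.7 to 36.8 CPM), dendritic cells (24.5 to 32.4 against 15.5 to 24.2), B cells (11.1 to 18.1 against 8.4 to 10.8), T and NK cells (1.48 to 1.85 against 1.41 to 1.61) and erythroid cells (1.46 to 2.24 against 1.56 to 2.05) were far below that of the neutrophil markers. The part of these cells in the values of the 10 genes was not tested.

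**Figure D3:**
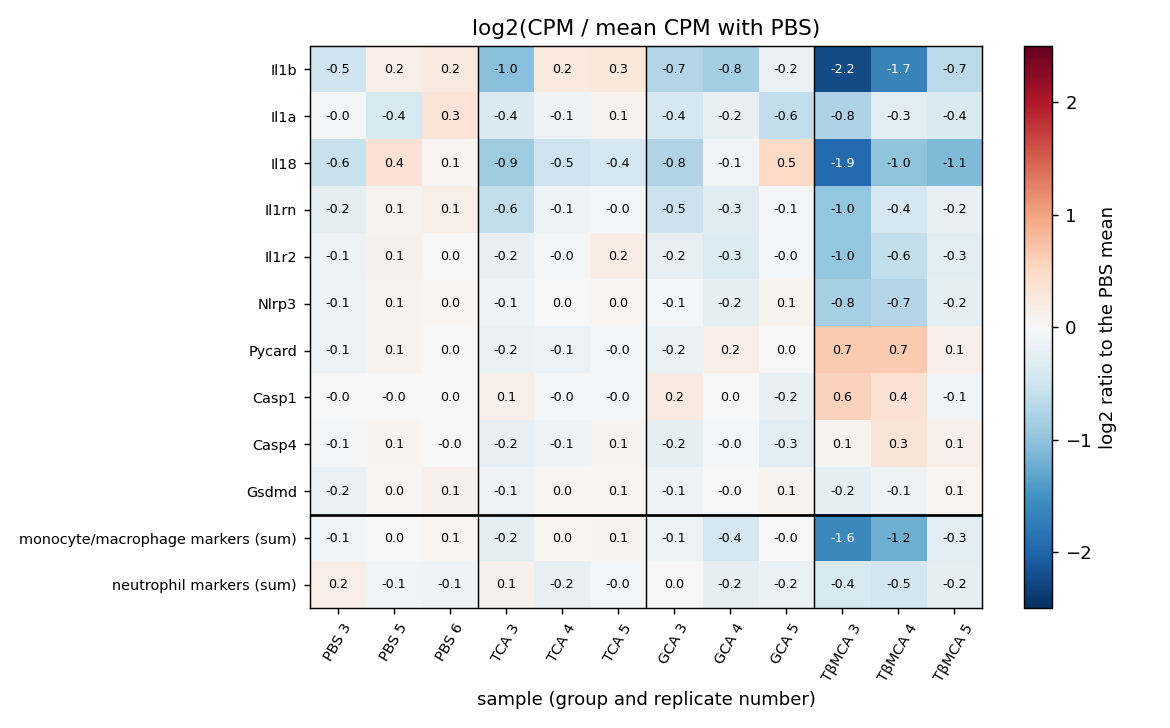
Log2 ratio of the CPM in each sample to the mean CPM with PBS, for the 10 genes and, under the line, for the summed monocyte and macrophage markers and the summed neutrophil markers. Columns are samples, blue is lower and red is higher than the PBS mean, and the number in a cell is its value. TβMCA replicate 3 holds the deepest blue cells, and replicate 5 is paler than replicates 3 and 4 for Il1b and for the monocyte and macrophage sum but not for Il18.

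The next comparison asked whether TCA, the taurine conjugate of cholic acid, changed these genes. With TCA no member passed edgeR's quasi-likelihood test over all genes, with an adjusted p of 1 for each, and none had an unadjusted p under 0.05. Of the background, 0% of the 16761 genes passed after adjustment and 3.26% (546 genes) had an unadjusted p under 0.05. The lowest unadjusted p of the 10 belonged to Il18, with a log2 fold change of −0.60 (SE 0.352, 95% interval −1.35 to 0.15). Il1rn followed at −0.23 (SE 0.219, −0.72 to 0.26) and Pycard at −0.12 (SE 0.125, −0.39 to 0.15). The other 7 log2 fold changes lay between −0.11 and 0.03. The interval for Il1b, −1.118 to 1.003, was the widest and reached a 2-fold difference in both directions, whereas for Gsdmd the interval was −0.19 to 0.18. No member was without overlap between TCA and PBS, and 4.91% of all genes were higher and 4.76% lower without overlap.

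GCA, the glycine conjugate of the same bile acid, gave 0 members past edgeR's adjusted threshold and 0 with an unadjusted p under 0.05. Of all genes, 0% passed after adjustment and 3.53% (591 genes) had an unadjusted p under 0.05. Casp4 had a log2 fold change of −0.17 (SE 0.102, 95% interval −0.39 to 0.05), Il1a one of −0.40 (SE 0.252, −0.94 to 0.13) and Il1rn one of −0.29 (SE 0.219, −0.78 to 0.21). The adjusted p was 0.999 for each of the 10 members in edgeR's test. Il1b, singled out after its values were seen, had a log2 fold change of −0.55 (SE 0.468, −1.62 to 0.52). Its call depended on the filter: when no gene was filtered out, edgeR's test gave Il1b an adjusted p of 0.000141 at a log2 fold change of −0.55, although the GCA and PBS samples overlapped. The cause of that change was not tested. The remaining 6 log2 fold changes lay between −0.18 and 0.02. No member was without overlap between GCA and PBS, where 4.71% of all genes were higher and 4.83% lower. TCA, GCA and TβMCA were all set against the same 3 PBS samples, so these contrasts are not independent of each other.

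GCA and TCA differ in the amino acid joined to cholic acid, glycine in GCA and taurine in TCA, and both were given at 200 µM for 24 h. This 1 pair of compounds was compared directly. It shares no sample with the contrast between TβMCA and PBS, although the genes were chosen with earlier results of all groups known. No member passed edgeR's test (adjusted p of 1 for each), none had an unadjusted p under 0.05, and none was without overlap. Of all genes, 0% passed after adjustment, 2.46% (412 genes) had an unadjusted p under 0.05, and 3.81% were higher and 4.19% lower with GCA without overlap. Il18 had the lowest unadjusted p, with a log2 fold change of 0.58 (SE 0.352, 95% interval −0.17 to 1.32) and higher values with GCA. Il1a followed at −0.30 (SE 0.252, −0.83 to 0.24) and Il1r2 at −0.19 (SE 0.159, −0.53 to 0.16). For Il1b the difference was −0.49 (SE 0.467, −1.56 to 0.58), and here too its adjusted p in edgeR's test was 0.001 when no gene was filtered out. The bounds were narrow for the machinery, −0.32 to 0.25 for Nlrp3, −0.30 to 0.29 for Casp1 and −0.19 to 0.18 for Gsdmd, and wide for the cytokines. The intervals do not show that the conjugates act alike.

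**Figure D4:**
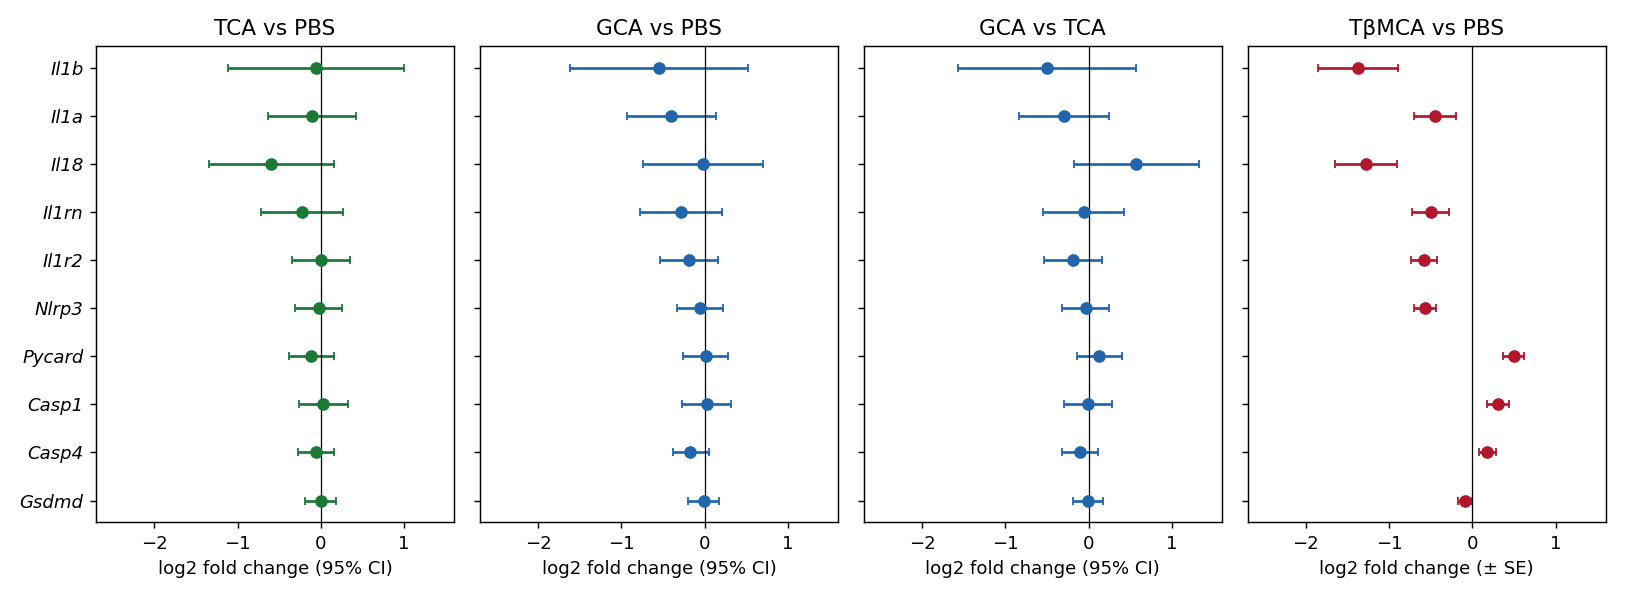
Log2 fold change of the 10 genes in the 4 contrasts, with bars for the 95% interval in TCA vs PBS, GCA vs PBS and GCA vs TCA and for 1 SE in TβMCA vs PBS, the contrast on which the genes were chosen. Every interval in the first 3 panels spans 0, and those of Il1b and Il18 are the widest.

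Other genes of the IL-1 and inflammasome pathway were taken from a written list of 52, of which 46 were matched in the table and 42 passed the filter. The list was written with earlier results of these data known, so its calls with TβMCA are no independent support. With TβMCA 2 of the 42 rose and 3 fell by edgeR's adjusted test, against 4.44% of all genes that rose and 3.18% that fell. Nothing about the pathway is read from these counts. The median log2 fold change of the list was −0.10. The genes that rose encode guanylate-binding proteins, interferon-induced GTPases that act on inflammasomes. Gbp2 had 5.14, 4.30 and 6.36 CPM with PBS and 14.1, 11.5 and 7.92 CPM with TβMCA (log2 fold change 1.08, SE 0.239, edgeR adjusted p = 0.0253). Gbp5 had 3.79, 2.47 and 3.24 CPM with PBS and 10.9, 10.6 and 4.925 CPM with TβMCA (1.47, SE 0.380, edgeR adjusted p = 0.0416). For both genes the groups did not overlap, and TβMCA replicate 5 was the nearest to PBS.

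The genes that fell were 2 inflammasome sensors and an inhibitor of neutrophil serine proteases. Nlrc4, the sensor that works with the NAIP proteins on bacterial flagellin, had 9.18, 8.62 and 9.22 CPM with PBS and 4.64, 5.94 and 6.85 CPM with TβMCA (log2 fold change −0.63, SE 0.147, edgeR adjusted p = 0.0259). Mefv, which encodes the sensor pyrin, had 95.1, 91.6 and 95.03 CPM with PBS and 59.6, 68.2 and 80.2 CPM with TβMCA (−0.44, SE 0.104, edgeR adjusted p = 0.0279). Serpinb1a, the protease inhibitor, had 490, 401 and 386 CPM with PBS and 175, 201 and 314 CPM with TβMCA (−0.89, SE 0.209, edgeR adjusted p = 0.0353). None of these 3 overlapped between the groups. With the replicate number as a block, Gbp5 (log2 fold change 1.25, adjusted p = 0.103) and Serpinb1a (−0.88, adjusted p = 0.122) no longer passed edgeR's test, and Txnip (−0.24, adjusted p = 0.0492), which encodes a thioredoxin-binding protein, did. By role, the calls were 2 of 10 sensors and 3 of 13 regulators, and 0 of 7 receptors, 0 of 7 receptor signaling proteins, 0 of 3 proteases, and neither Il18bp, which encodes the IL-18 binding protein, nor Ninj1, which encodes a membrane rupture protein.

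The 3 listed proteases, which can cut IL-1 family precursors outside cells, lay below PBS without overlap but did not pass the test. Of the 42 list genes, 8 were lower and 3 higher than PBS without overlap, against 12.8% and 14.1% of all genes. Elane (neutrophil elastase) had 21.8, 27.8 and 25.9 CPM with PBS and 2.72, 5.94 and 19.2 CPM with TβMCA (edgeR adjusted p = 0.16). Ctsg (cathepsin G) had 18.3, 18.8 and 18.3 CPM with PBS and 4.13, 5.59 and 12.7 CPM with TβMCA (edgeR adjusted p = 0.0556). Prtn3 (proteinase 3) had 12.3, 14.7 and 12.97 CPM with PBS and 4.55, 7.35 and 11.4 CPM with TβMCA (edgeR adjusted p = 0.0811). For each of them, TβMCA replicate 5 was the nearest to PBS.

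The calls on the list depended on single libraries, as did the calls over all genes. Without TβMCA replicate 5, 3 of the 42 list genes rose and 12 fell by edgeR's adjusted test, against 8.52% and 9.44% of all 17131 genes tested there. Those that rose were Gbp2, Gbp5 and Nek7, a kinase that binds NLRP3. Among the 12 that fell were the 3 proteases (log2 fold change −2.53 for Elane, −1.92 for Ctsg and −1.16 for Prtn3), and the others were Serpinb1a, Nlrc4, Mefv, Nlrp1a, Naip1, Naip2, Txnip, Myd88 and Il1rl2. Leaving out any one of PBS replicates 3, 5 or 6 or TβMCA replicates 3 or 4 left 0 list genes by edgeR's adjusted test, with 9 to 12 at an unadjusted p under 0.05. Over all 17106 to 17136 genes tested in these fits, the adjusted test called 168 without PBS replicate 6 and 0 in the others. Of those genes, 2875 to 3792 had an unadjusted p under 0.05. DESeq2 on all samples called 7 list genes, against 2035 of 14742 genes. Limma on log2(RPKM + 1) called 4, against 861 of 13951 genes. With TCA and with GCA against PBS, and with GCA against TCA, 0 of the 42 list genes passed edgeR's adjusted test. At an unadjusted p under 0.05 there were 1, 2 and 2 of them, against 3.26%, 3.53% and 2.46% of all genes.

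**Figure D5:**
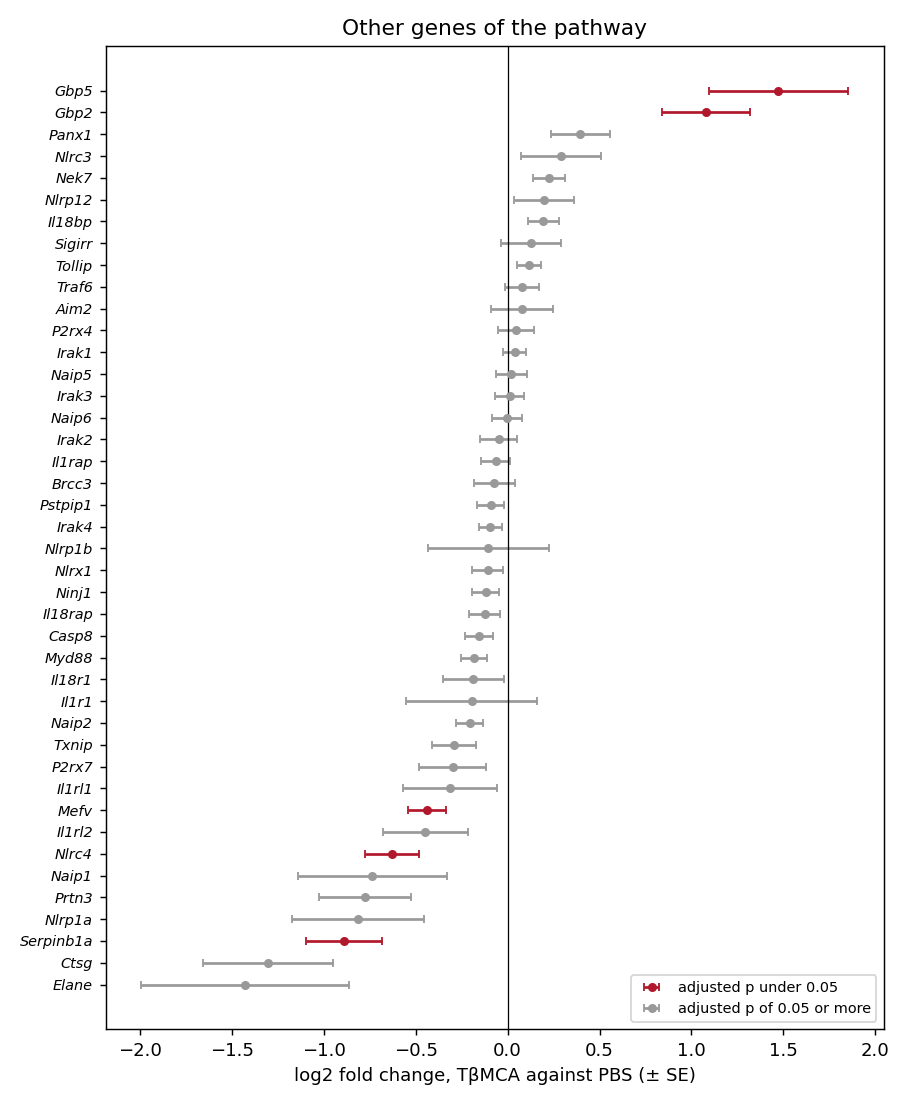
Log2 fold change between TβMCA and PBS of the 42 other pathway genes tested, with 1 SE as the bar and genes with an edgeR adjusted p under 0.05 in red. Gbp5 and Gbp2 lie farthest to the right, and Elane and Ctsg farthest to the left with wide bars.

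The receptors through which these cytokines act are given for their role, named after their values were seen, and none passed the test over all 12 samples. Il1r1, the signaling receptor of IL-1, was scarce, with 0.775, 0.647 and 0.485 CPM with PBS and 0.419, 0.756 and 0.482 CPM with TβMCA. Its partner Il1rap had 19.6, 21.1 and 20.9 CPM with PBS, 20.6, 18.2 and 20.2 with TβMCA, 22.7, 22.1 and 22.5 with TCA and 18.5, 18.2 and 18.9 with GCA. The GCA samples lay below the TCA samples without overlap (log2 fold change −0.28, SE 0.078), and the edgeR adjusted p of that difference was 1. The IL-18 receptor chains overlapped between TβMCA and PBS: Il18r1 had 23.8, 31.0 and 31.2 CPM with PBS and 17.7, 28.1 and 29.7 with TβMCA, and Il18rap had 280.3, 312 and 321 CPM with PBS and 237, 298 and 302 with TβMCA. Il18bp, which encodes the soluble inhibitor of IL-18, had 53.1, 56.0 and 62.9 CPM with PBS and 60.4, 73.1 and 63.3 with TβMCA, which also overlapped. Myd88, the adaptor shared by these receptors, had 69.0, 71.7 and 76.9 CPM with PBS and 58.9, 64.7 and 68.0 with TβMCA, without overlap and with an edgeR adjusted p of 0.126.

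The replicate number moved with several members, a pattern singled out after the values were seen. Replicate 3 was the lowest sample in all 4 groups for Il1rn, Il18 and Gsdmd, as it was for 8.3% of all genes tested. It was the lowest in 3 of the 4 groups for Il1b, Il1r2, Nlrp3, Casp4 and Pycard, in 2 for Il1a, and the highest in 3 of the 4 for Casp1. The share of all genes with such a pattern in 2 or 3 groups was not counted, so nothing about the members is read from it. The labels do not say what the numbers stand for.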

How the data were processed

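RNA of cultured mouse bone marrow neutrophils was sequenced after a stranded mRNA library preparation. Per the submitters' processing notes, reads were trimmed with Trimmomatic 0.36, mapped with STAR 2.5.3a to GRCm38 and counted per gene with featureCounts of Subread 1.5.1. The authors deposited raw counts of reads per gene, and RPKM values that divide those counts by merged exon length and library total. The strand setting of the counting is not given in the sources used here.

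Counts were normalized by TMM and filtered with filterByExpr, and the groups were compared with edgeR 4.0.16 (R 4.3.3), with its robust quasi-likelihood test over all 12 samples and Benjamini-Hochberg adjustment over 16761 genes at 0.05. Log2 CPM used a prior count of 2. The methods of the study name a 2-fold cutoff, used as an alternative with unadjusted p. Other alternatives were DESeq2 1.42.0, limma 3.58.1 on log2(RPKM + 1) or log2(RPKM + 0.1) for genes whose mean RPKM reached 0.5, RLE or total library size, no filter, a minimum of 10 counts per sample, a fit of only the 2 groups concerned, the replicate number as a block and leaving out each sample. Scripts were tested on simulated data. Plots used matplotlib 3.10.9.

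The members, the pathway list and the marker lists (neutrophil, monocyte and macrophage, dendritic, B, T and NK, eosinophil, basophil and mast, erythroid) were chosen with earlier results of these data known. All members were to be named, with the 3 of lowest p where none was called, and list genes that were called (at most 6 in each direction). Depth was 32757389 to 41375925 counts per sample, and limits of 3 counts cover counting error only.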

Additional observations from a re-analysis of the deposited data

How the results depend on the processing

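No member passed the adjusted threshold with TCA or GCA under any alternative except when no gene was filtered out, which gave 1 member in GCA vs PBS and 1 in GCA vs TCA, Il1b in both (log2 fold change −0.55 and −0.49). The same setting gave 37 genes in TCA vs PBS, 36 in GCA vs PBS, 42 in GCA vs TCA and 2406 in TβMCA vs PBS, where 1278 passed with the filter, and 11 genes of the pathway list in place of 5. For all of these the cause was not tested. The study's cutoffs without adjustment gave 78 genes with TCA, 89 with GCA, 74 in GCA vs TCA and 494 with TβMCA. DESeq2 gave 1, 0, 0 and 2035 genes in that order, and limma with a pseudocount of 0.1 gave 689 with TβMCA and 3 list genes. With only the 2 groups in the fit, 0 genes and 0 list genes passed with TβMCA by edgeR's adjusted test, with 3485 genes at an unadjusted p under 0.05.

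Leaving out 1 sample gave 0 to 3076 genes and 0 to 15 list genes with TβMCA, the highest without TβMCA replicate 5, and 0 genes in each of the other contrasts. Il1b log2 fold changes with TCA, −0.06 over all samples, ran from −0.26 to 0.26 and were thus of either sign. With total library sizes the median log2 fold change of all genes with TβMCA was 0.052 and 1013 genes rose and 395 fell, against 745 and 533 with TMM. The TβMCA estimates of the 10 members had the same sign under every alternative. On log2(RPKM + 1), those of Il18 (−0.51) and Il1a (−0.15) were smaller, as a pseudocount shrinks low values.

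Same-numbered samples of different groups deviated together in part: their correlation over genes was over 0.1 in 12 of 15 pairs (0.06 to 0.326, mean 0.189, against a mean of −0.072 in 39 pairs with different numbers), and 7 of 11 samples correlated best with their own number in every other group. Since 3 pairs fell short of 0.1 and the labels do not say what a number marks, the numbers were not taken as pairs, and a shared preparation behind them was not tested. With the number as a replicate block, 3 genes passed with TCA, 0 with GCA and 1498 with TβMCA, 4 list genes passed in place of 5 (2 lost and 1 gained), and the Il1b log2 fold change with TCA was 0.024. The depth limits Il18 and Il1a most, at 10 to 69 counts per sample.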

Other observations

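Replicate 4 of GCA differed from the other GCA samples in several of the genes above, which was noticed after the values were seen. It had the lowest Il1b (24.4 CPM, near the 26.2 CPM of replicate 3), Il1r2 (147 CPM) and Nlrp3 (54.6 CPM) of the 3 GCA samples. It also had the highest Pycard (92.7 CPM) and Casp4 (18.8 CPM, against 16.4 and 16.0 CPM). Its Gbp2 level was 9.45 CPM, against 5.66 and 5.498 CPM in replicates 3 and 5, and its Gbp5 level was 6.79 CPM, against 2.93 and 2.88 CPM. Serpinb1a stood at 297 CPM in that sample, against 424 and 370 CPM, and Ctsg at 10.2 CPM, against 16.7 and 16.3 CPM. The summed monocyte and macrophage markers were 1157 CPM in it and 1416 and 1528 CPM in the other GCA samples, and Ccr2 was 24.9 CPM, against 43.7 and 38.5 CPM. Each of these differences had the direction of the TβMCA samples, whereas Il1rn, Il18, Casp1 and Gsdmd of that sample lay between the other GCA samples and Il1a (1.29 CPM, against 1.10 and 0.960 CPM) had the opposite direction. With 3 samples in a group, no test of a single library was made.

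The genes most like Il1b and Il18 were ranked by Pearson's r of log2 CPM over the 12 samples among 8066 genes with a mean of at least 10 CPM. All points share the library and the normalization, and the TβMCA samples lie at the low end for Il18. For Il1b, TβMCA replicates 3 and 4 lie at the low end. Replicate 5 (27.5 CPM) lies above TCA replicate 3 (21.2 CPM) and GCA replicates 3 and 4 (26.2 and 24.4 CPM). For Il1b the genes were Tpm4 (r = 0.983), Pdia6 (0.980), 1810014B01Rik (0.980), Gm26586 (0.976) and Pdia3 (0.975), of which Pdia6 and Pdia3 encode protein disulfide isomerases of the endoplasmic reticulum. For Il18 the leading 4 genes were Pef1 (0.940), Bckdk (0.913), Blvrb (0.907) and Reep5 (0.898). A ranking by Spearman's rho kept 1 of the 5 genes named for Il1b.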
